A study of Rattus norvegicus with 24 samples.

Results

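The 9 genes described here are marker genes of cortical excitatory neurons: Slc17a7, Neurod6, Cck, Nptx1 and Mef2c of many layers, Rorb of layer 4, Fezf2 of layer 5, Tbr1 of layer 6 and Ctgf of layer 6b. They were taken by gene name from the 32545 genes of the table, and each was read in all 24 libraries. They had been chosen by their measured levels, as marker genes higher in LPS-Heroin than in Saline-Saline rats, so their levels in those 2 groups are given as a description, without a test. Rorb went against this choice: its level was the same in both groups on the log2 scale.

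RNA of the nucleus accumbens (NAc, core and shell) of adult male Sprague Dawley rats, 8 weeks old on arrival, was sequenced in 24 libraries, 4 for each of 6 groups, and the labels call the 4 biological replicates. In the injection experiment, rats received 5 intermittent intraperitoneal injections of saline or of 250 µg/kg LPS, a bacterial cell wall component that activates the immune system. They then received saline or heroin for 5 days, with heroin rising from 1 to 5 mg/kg. Controls were Saline-Saline, rats given a single agent were LPS-Saline or Saline-Heroin, rats given both were LPS-Heroin, and by the labels tissue was taken 1 hour after the last injection. The study's methods place a locomotor test between the last injection and the end, and they differ from the labels in this interval and in the gap between LPS and heroin. In the other experiment, catheterized rats self-administered saline (Saline-SA) or heroin at 0.075 mg/kg per infusion (Heroin-SA) for 6 hours a day over 10 sessions. Tissue was taken straight after the last session, so both experiments differ in surgery, procedure and time of death as well as in drug.

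The NAc lies in the ventral striatum, where most neurons are GABAergic medium spiny neurons and excitatory input arrives as axons from cortex, hippocampus, amygdala and thalamus. Cell bodies that express vesicular glutamate transporter 1 sit outside the NAc, in the cortical layers, piriform cortex and claustrum beside it. Layer 6b is the deepest cortical layer, next to the white matter that separates cortex from striatum. In bulk tissue, fewer cells of a type and less RNA per cell cannot be told apart.

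Levels are in FPKM, read counts scaled to gene length and to the size of the library. Between 12312878 and 18850240 reads of a library lay on genes, and Slc17a7 rested on 1584 to 17828 of them. The thinnest members were Rorb, with 50 to 184 reads, and Fezf2, with 37 to 364. None of the 9 genes overlaps another gene's span in the rn6 annotation of the files. The tissue label was checked against its markers. All 17 striatal medium spiny neuron genes examined were present in every library, with Ppp1r1b (DARPP-32) at 488 FPKM or more and Drd1 at 41.1 or more. Saline-Saline replicate 1 stood apart from the other libraries. Its Ttr, the transthyretin made by choroid plexus, reached 318 FPKM, and the 4 choroid plexus genes summed to 331 FPKM. The same sum reached 26.0 FPKM in 1 LPS-Heroin library, and the highest sums of the other 4 groups were 1.38 to 2.62 FPKM.

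Promoter sequences are shown for 4 members whose levels are followed below: Slc17a7 as the reference gene of the set, Neurod6 and Ctgf because they held the searched motifs, and Rorb because it did not move with the others. They come from RefSeq (GRCr8), run 5′ to 3′ on the gene's strand, and hold 250 bases before and 50 after the annotated start. Of the 9 genes, 6 had an entry, with Ctgf listed as Ccn2. Capitals mark matches, on either strand, to the NeuroD E-box CAGATG, the T-box core site GGTGTG, the CRE core site TGACG or the TEAD site GGAATG. MEF2 sites and CArG boxes were searched as well and had no match in the 6 promoters.
Slc17a7 (chr1:104785955-104786254, plus strand): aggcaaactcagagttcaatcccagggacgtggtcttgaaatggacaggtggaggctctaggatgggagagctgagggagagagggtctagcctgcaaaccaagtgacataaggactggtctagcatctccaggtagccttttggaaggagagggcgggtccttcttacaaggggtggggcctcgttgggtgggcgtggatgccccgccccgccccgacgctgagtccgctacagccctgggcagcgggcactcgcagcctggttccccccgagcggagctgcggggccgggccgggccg
Neurod6 (chr4:86180106-86180405, minus strand): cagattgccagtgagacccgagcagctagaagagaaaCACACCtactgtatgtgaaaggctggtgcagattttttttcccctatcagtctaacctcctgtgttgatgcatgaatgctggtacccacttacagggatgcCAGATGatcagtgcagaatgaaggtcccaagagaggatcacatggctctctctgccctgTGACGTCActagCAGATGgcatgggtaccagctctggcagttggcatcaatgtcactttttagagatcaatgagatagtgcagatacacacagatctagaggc
Ctgf (chr1:22624565-22624864, minus strand): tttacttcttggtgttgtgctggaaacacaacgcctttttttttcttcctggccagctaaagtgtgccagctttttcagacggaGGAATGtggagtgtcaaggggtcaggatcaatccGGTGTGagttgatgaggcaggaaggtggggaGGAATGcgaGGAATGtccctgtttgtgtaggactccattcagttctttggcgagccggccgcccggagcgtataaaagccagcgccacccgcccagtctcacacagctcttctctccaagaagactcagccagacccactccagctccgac
Rorb (chr1:225970924-225971223, minus strand): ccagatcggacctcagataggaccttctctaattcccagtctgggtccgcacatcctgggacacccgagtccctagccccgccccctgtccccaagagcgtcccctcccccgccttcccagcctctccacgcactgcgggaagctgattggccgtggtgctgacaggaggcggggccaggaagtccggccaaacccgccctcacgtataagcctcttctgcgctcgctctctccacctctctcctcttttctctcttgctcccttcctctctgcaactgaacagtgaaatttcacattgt

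The Ctgf window held 3 TEAD sites, a motif of the YAP and TEAD pathway, and 1 T-box core site. The Neurod6 window held 2 NeuroD E-boxes, 1 T-box core site and a palindrome that reads as the CRE core site on both strands. No searched motif lay in the Slc17a7, Rorb, Fezf2 or Tbr1 window. Among all 33469 promoters of the table, 14.2% held a TEAD site, 16.6% a NeuroD E-box, 17.9% a T-box core site and 21.2% a CRE core site. Of the 6 members, 1, 1, 2 and 1 held them, and the T-box core site was the only searched motif held by more than 1 member. A match is a description of letters and no evidence of binding.

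Slc17a7 encodes vesicular glutamate transporter 1, which loads glutamate into the synaptic vesicles of cortical excitatory neurons (chromosome 1, 101161372 to 101173195 in rn6). Its level was 108, 224, 73.8 and 227 FPKM in Saline-Saline replicates 1 to 4, and 374, 329, 280 and 349 FPKM in LPS-Heroin. It was 318, 301, 91.2 and 308 FPKM in LPS-Saline, and 356, 128, 296 and 278 FPKM in Saline-Heroin. The LPS-Heroin libraries lay above all Saline-Saline libraries, while a single library was far below its fellows in LPS-Saline (replicate 3) and in Saline-Heroin (replicate 2). In self-administration, Slc17a7 was 207, 177, 40.8 and 162 FPKM in Saline-SA and 271, 249, 340 and 36.6 FPKM in Heroin-SA. Again 1 library of each group, replicate 3 of Saline-SA and replicate 4 of Heroin-SA, was far below the others. The range over the 24 libraries was 10.2-fold, and within Heroin-SA alone it was 9.29-fold. The ratio of the LPS-Heroin to the Saline-Saline mean, 333 ± 39.6 against 158 ± 79.0 FPKM (SD, n = 4), was 2.11.

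**Figure D1:**
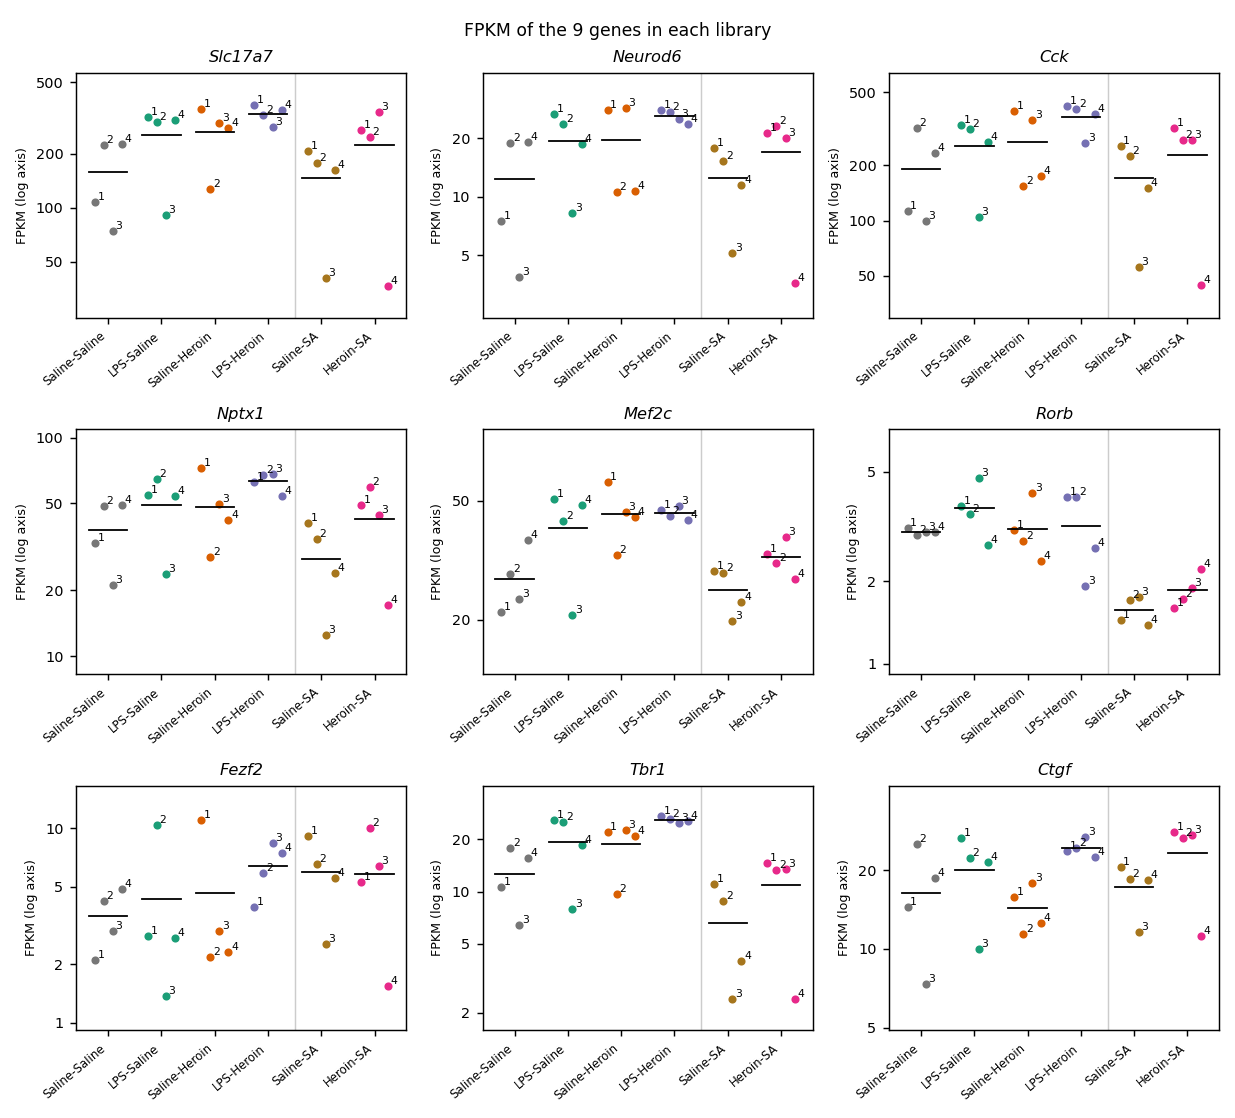
FPKM (log axis) of each gene in every library, by group. Each point is 1 library with its replicate number, horizontal lines are group means, and the grey vertical line separates the 2 experiments. Low points recur in the same libraries for 8 genes (LPS-Saline 3, Saline-Heroin 2, Saline-SA 3, Heroin-SA 4). LPS-Heroin, the group in which the genes were chosen as high, holds none.

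Neurod6, a basic helix-loop-helix factor of pyramidal neurons (chromosome 4, 85911861 to 85915099), followed the same libraries. It stood at 7.47, 18.9, 3.85 and 19.1 FPKM in Saline-Saline and at 28.0, 27.3, 25.2 and 23.6 FPKM in LPS-Heroin. It was 26.6, 23.5, 8.23 and 18.7 FPKM in LPS-Saline and 27.9, 10.6, 28.7 and 10.7 FPKM in Saline-Heroin. In Saline-Heroin, then, replicate 4 was as low as replicate 2, which was not so for Slc17a7. Self-administration libraries held 17.9, 15.2, 5.13 and 11.5 FPKM of Neurod6 in Saline-SA and 21.2, 23.1, 19.9 and 3.59 FPKM in Heroin-SA.

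Cck encodes cholecystokinin, a peptide of pyramidal cells and some interneurons (chromosome 8, 130120523 to 130127392). It was 113, 318, 100.04 and 234 FPKM in Saline-Saline and 423, 406, 266 and 380 FPKM in LPS-Heroin, so that 1 LPS-Heroin library lay within the Saline-Saline range. Its lowest values in the other groups were 105 FPKM in LPS-Saline replicate 3, 154 in Saline-Heroin replicate 2, 56.1 in Saline-SA replicate 3 and 44.5 in Heroin-SA replicate 4. Nptx1, a secreted neuronal pentraxin that clusters AMPA receptors (chromosome 10, 108682638 to 108691367), was 32.9, 48.5, 21.1 and 49.0 FPKM in Saline-Saline and 62.8, 67.6, 67.9 and 53.9 FPKM in LPS-Heroin. These groups did not overlap, and the lowest Nptx1 libraries elsewhere were the same as those of Cck, at 23.7, 28.3, 12.4 and 17.1 FPKM.

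Mef2c encodes a transcription factor of excitatory neurons that microglia, endothelium and interneurons also use (chromosome 2, 11658568 to 11822787). It had the narrowest span of the set, 2.92-fold over 24 libraries. It was 21.2, 28.4, 23.4 and 36.8 FPKM in Saline-Saline and 46.4, 44.3, 48.0 and 43.2 FPKM in LPS-Heroin, without overlap. In Saline-Heroin it was 57.7, 32.9, 46.0 and 44.2 FPKM, and the mean of that group, 45.2 ± 10.2 FPKM (SD, n = 4), was close to the 45.5 ± 2.11 FPKM of LPS-Heroin. LPS-Saline held 50.8, 42.6, 20.8 and 48.2 FPKM, with replicate 3 again lowest.

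Among the layer markers, Tbr1, a T-box factor of corticothalamic layer 6 neurons (chromosome 3, 47677720 to 47685902), was lowest in the same library of each group as Slc17a7. It was 10.6, 17.7, 6.45 and 15.6 FPKM in Saline-Saline and 27.2, 26.1, 24.7 and 25.6 FPKM in LPS-Heroin. It was 25.7, 25.3, 7.95 and 18.6 FPKM in LPS-Saline and 22.2, 9.64, 22.6 and 21.0 FPKM in Saline-Heroin. All 4 LPS-Heroin libraries were therefore above all Saline-Saline and all Saline-Heroin libraries, and they spanned only 1.10-fold. In self-administration, Tbr1 was 11.1, 8.78, 2.39 and 3.97 FPKM in Saline-SA and 14.7, 13.2, 13.4 and 2.41 FPKM in Heroin-SA.

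Ctgf, a matricellular protein made by layer 6b neurons and by vascular cells (chromosome 1, 21851660 to 21854773), differed from the set in the heroin-injected rats. It was 14.5, 25.2, 7.34 and 18.6 FPKM in Saline-Saline and 23.7, 24.3, 26.8 and 22.4 FPKM in LPS-Heroin. In Saline-Heroin it was 15.7, 11.4, 17.8 and 12.5 FPKM, below every LPS-Heroin library, and its mean of 14.4 ± 2.96 FPKM was under the Saline-Saline mean of 16.4 ± 7.47 FPKM (SD, n = 4). The Saline-Saline and Saline-Heroin ranges overlapped. LPS-Saline held 26.4, 22.3, 9.98 and 21.6 FPKM of Ctgf, Saline-SA 20.6, 18.5, 11.6 and 18.4 FPKM, and Heroin-SA 28.1, 26.5, 27.2 and 11.2 FPKM.

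Fezf2, a zinc finger factor of subcerebrally projecting layer 5 neurons (chromosome 15, 12827707 to 12831496), had single high libraries in 2 groups. It was 2.10, 4.21, 2.95 and 4.87 FPKM in Saline-Saline, and 3.94, 5.88, 8.36 and 7.45 FPKM in LPS-Heroin, where 1 library lay within the Saline-Saline range. A single library was far above the rest in LPS-Saline, replicate 2 at 10.4 FPKM against 1.38 to 2.78 in the others, and in Saline-Heroin, replicate 1 at 11.01 FPKM against 2.17 to 2.97. The Fezf2 values of self-administration rats ran from 2.53 to 9.09 FPKM in Saline-SA and from 1.54 to 9.96 FPKM in Heroin-SA. The lowest Fezf2 libraries of LPS-Saline, Saline-Heroin, Saline-SA and Heroin-SA were the same as those of Slc17a7.

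Rorb, a nuclear receptor that marks layer 4 (chromosome 1, 234252757 to 234435839), shared none of this pattern. It was 3.12, 2.94, 3.03 and 3.03 FPKM in Saline-Saline and 4.06, 4.07, 1.92 and 2.64 FPKM in LPS-Heroin, which lay on both sides of Saline-Saline. Its highest value in the series, 4.76 FPKM, was in LPS-Saline replicate 3, the library in which the other 8 genes were lowest in their group. Rorb also differed between the experiments. It was 1.38 to 2.21 FPKM in the 8 self-administration libraries and 1.92 to 4.76 FPKM in the 16 injection libraries. Thsd7a was the only other layer 4 gene averaging 0.5 FPKM or more over the series. It was likewise highest in LPS-Saline replicate 3, and its mean log2 difference from Saline-Saline was -1.27 in Saline-SA and -1.12 in Heroin-SA. Tbr1 was lower in self-administration as well, at 2.39 to 14.7 FPKM against 6.45 to 27.2 FPKM, with overlapping ranges. So were the medians of Slc17a7 (192 against 288 FPKM), Neurod6 (16.5 against 21.3), Cck (239 against 291), Nptx1 (37.6 against 51.7) and Mef2c (28.9 against 43.7). The median of Ctgf was near, at 19.5 against 20.1 FPKM, and that of Fezf2 was higher, at 5.94 against 3.45. The injection libraries include LPS-Heroin, the group in which the members were chosen as high. The rats without heroin or LPS differed too, with Rorb at 1.38 to 1.76 FPKM in Saline-SA and 2.94 to 3.12 FPKM in Saline-Saline. Mitochondrial reads were 10.0% to 15.9% of the reads on genes in the self-administration libraries, with Saline-SA replicate 3 highest, and 6.82% to 9.10% in the injection libraries, and their part in the result was not tested. Procedure, surgery and other features of the experiments cannot be told apart.

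**Figure D2:**
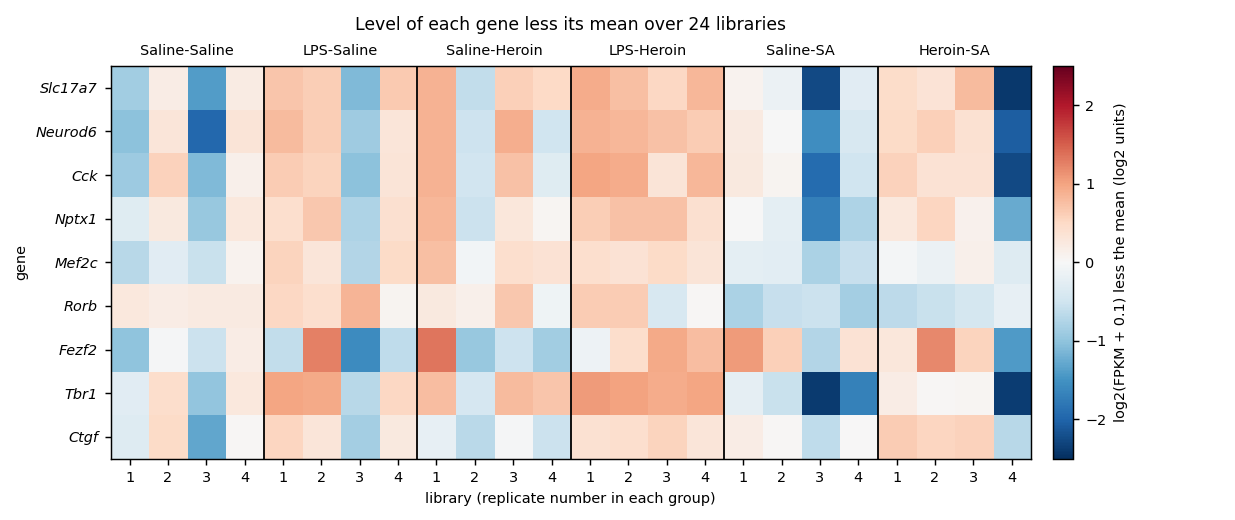
Level of each gene in each library, as log2(FPKM + 0.1) less that gene's mean over the 24 libraries; red is above and blue below the mean, columns are libraries by group and replicate. The columns of Saline-Saline 3, LPS-Saline 3, Saline-SA 3 and Heroin-SA 4 are blue for the 8 genes other than Rorb, which is blue in all 8 self-administration libraries. The 4 LPS-Heroin columns are red for most genes, which were chosen as high in that group.

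The low libraries were shared by the members. The library with the least Slc17a7 of its group also held the least of 8 of the 9 genes in LPS-Saline, Saline-Heroin, Saline-SA and Heroin-SA, each time with Rorb as the exception. In Saline-Heroin replicate 4 came close to replicate 2 for Neurod6 (10.7 against 10.6 FPKM), Fezf2 (2.32 against 2.17), Ctgf (12.5 against 11.4) and Cck (174 against 154). In Saline-Saline the library with the least Slc17a7, replicate 3, was lowest for 6 of 9 genes, the exceptions being Mef2c, Rorb and Fezf2. In LPS-Heroin it was lowest for 4 of 9. Of the 6 libraries with the least Slc17a7 in the series, Neurod6 shared 6 among its own lowest 6, Cck, Nptx1, Mef2c, Fezf2 and Ctgf shared 5, Tbr1 shared 4 and Rorb shared 1. No LPS-Heroin library was among the lowest 6 for any of the 9 genes. The members were chosen as higher in LPS-Heroin than in Saline-Saline, and these ranks include both groups. Nothing is therefore read from the place of either group in them.

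**Figure D3:**
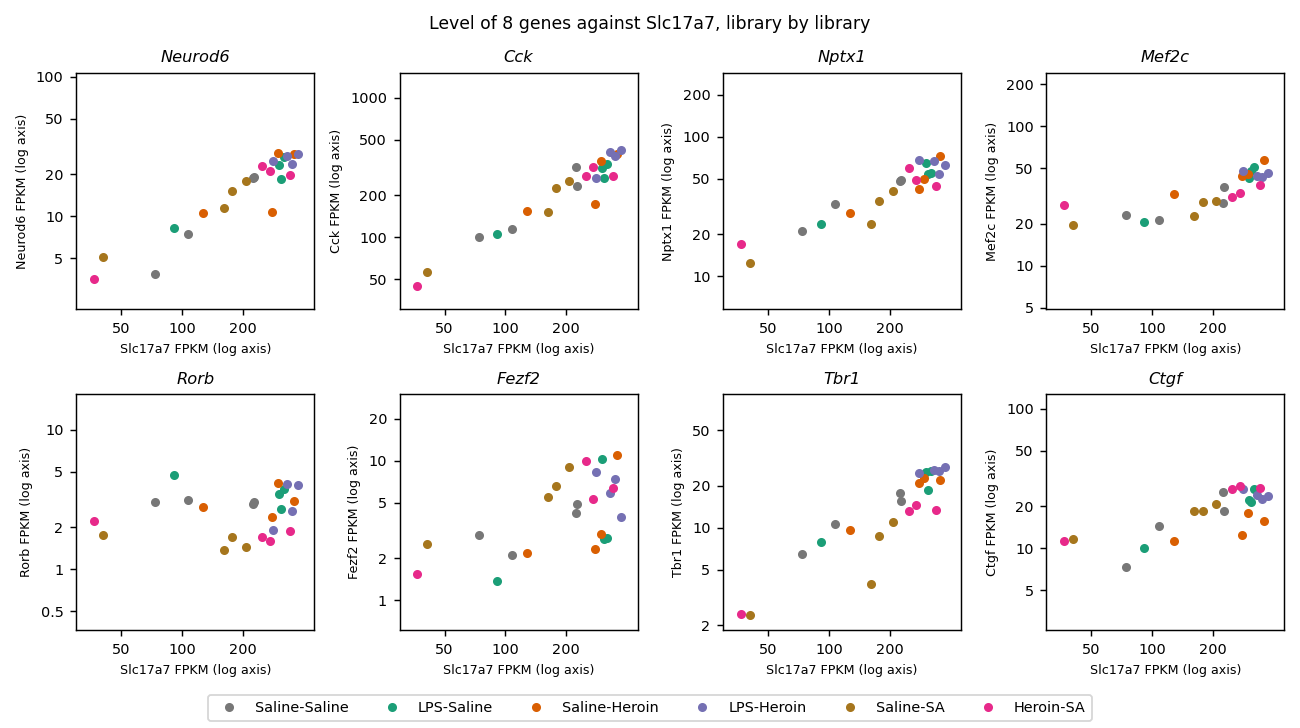
FPKM of 8 genes against FPKM of Slc17a7 (both axes log), 1 point per library, coloured by group. Neurod6, Cck, Nptx1, Tbr1 and Ctgf are lowest where Slc17a7 is lowest, Mef2c spans a narrower range, Fezf2 has single high points and Rorb does not follow.

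To measure this covariation apart from the groups, each gene's slope on a cortical score was fitted within groups in the 16 libraries that the choice had not used (LPS-Saline, Saline-Heroin, Saline-SA and Heroin-SA). The score was the mean log2(FPKM + 0.1) of 32 other cortical genes of all layers, so a slope is the log2 change of a gene per log2 unit of the score. The members and the lists behind the score had been chosen with earlier results of these data known. The adjusted p-values therefore describe covariation in these libraries and are no independent support. With limma and Benjamini-Hochberg adjustment over 15113 genes, 7 of the 9 members were called with a positive slope (adjusted p of at most 0.05), beside 1.26% of all genes. Slc17a7 had a slope of 3.67 ± 0.44 (SE; adjusted p = 0.000917) and Ctgf one of 1.62 ± 0.26 (adjusted p = 0.00749). Cck, Nptx1, Neurod6, Tbr1 and Mef2c lay between 1.13 and 3.17, with limma adjusted p-values from 0.00191 to 0.0309. Fezf2 had a slope of 2.96 ± 0.69 that missed the threshold (adjusted p = 0.0521), and Rorb a negative one of -0.57 ± 0.27 (adjusted p = 0.361).

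These slopes rested on few libraries. Without Heroin-SA replicate 4, 2 members were called (Slc17a7 and Nptx1), beside 0.212% of all genes. Without LPS-Saline replicate 3 it was 3, beside 0.384%, and without Saline-SA replicate 3 it was 4, beside 0.774%. In the 8 self-administration libraries alone no member was called, beside 0% of all genes. In the 8 injection libraries alone no member was called either, beside 0.0265%. Nearly no gene was called in these smaller fits, so nothing is read from them about the members.

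By layer, the score of 8 other genes of all cortical layers, chosen as an alternative after the data had been seen, called 8 of 9 members, all but Rorb, beside 2.32% of all genes. The score of 8 other genes of layer 6b, claustrum and endopiriform nucleus called 6 (Slc17a7, Neurod6, Cck, Nptx1, Tbr1 and Ctgf), beside 0.840% of all genes. Scores of layers 2 and 3, of layer 5 and of layer 6, of 5 genes each, called none of the 9. Each stood beside 0% of all genes called with a positive slope, so no contrast between layers is read from these counts. With the layer 5 score, which held Etv1, Parm1 and Deptor, the slopes of the 8 genes other than Rorb were negative, from -2.27 for Slc17a7 to -0.73 for Mef2c. With the layer 6 score, which held Tle4 and Syt6, the slopes of these 8 genes were positive. With Slc17a7 itself in place of a list, slopes ran from 0.27 for Mef2c to 0.88 for Cck, Ctgf stood at 0.44 ± 0.05 and Rorb at -0.11 ± 0.07.

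Genes of other tissue moved with the members in part, and their part in the result was not tested. The striatal score of 17 genes was the highest of its group in the library lowest for Slc17a7 in 4 of 6 groups: Saline-Saline, LPS-Saline, Saline-SA and Heroin-SA. In Saline-Heroin replicate 2 the striatal score was instead the lowest of its group, while the septal and choroid plexus scores were the highest. The choroid plexus score, of 2 genes, was also the highest in Saline-SA replicate 3 and Heroin-SA replicate 4. In the libraries lowest for Slc17a7 it was thus highest in 3 of 6 groups and lowest in 2, as was the oligodendrocyte score. The slopes of all 17 striatal genes on the cortical score were negative, from -0.72 to -0.20, and none was called. Adding the striatal score as a second covariate left 2 members called, beside 0.152% of all genes. Septal genes, with Zic1, Zic2 and Trpc4 the most abundant, were lowest in the library with the least Slc17a7 in 4 of 6 groups.

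**Figure D4:**
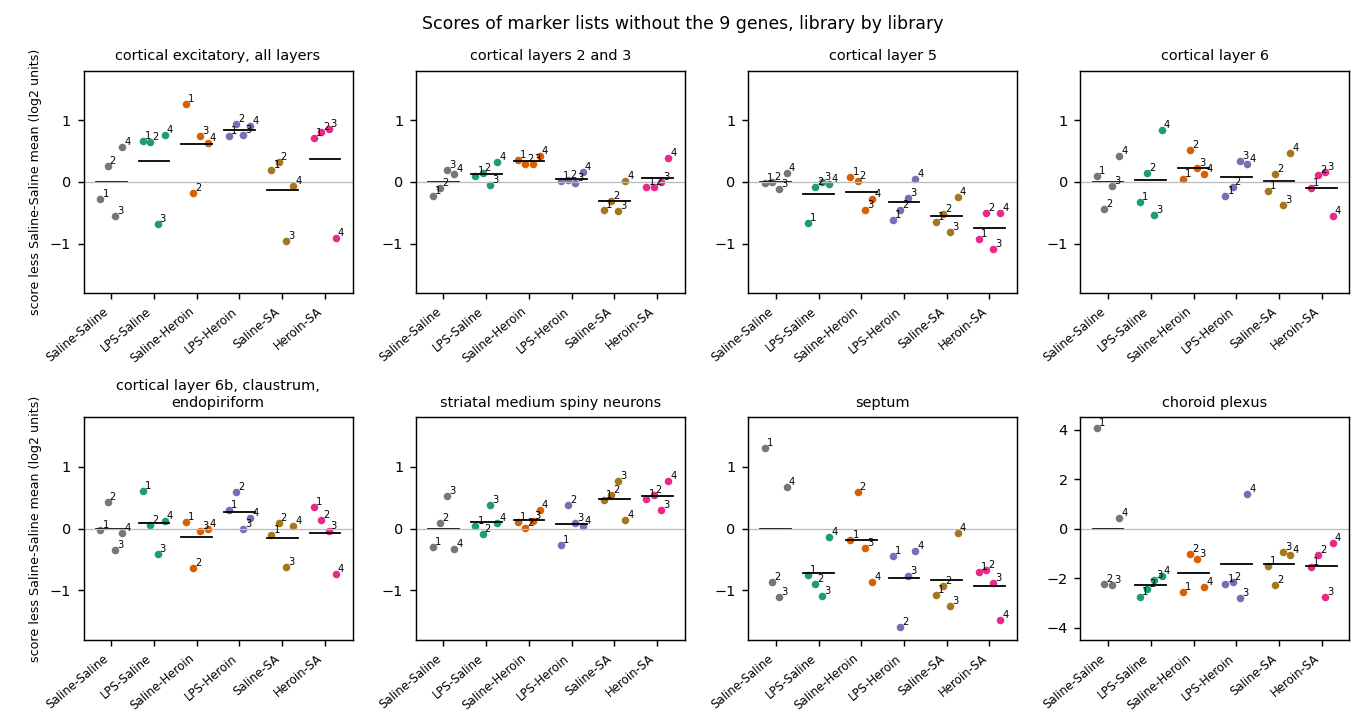
Scores of marker lists without the 9 genes, as mean log2(FPKM + 0.1) less the Saline-Saline mean, by group and library (numbers are replicates, lines are group means; choroid plexus has a wider axis). The all-layer cortical and layer 6b scores are low in the same libraries as the 9 genes, while the striatal score is high in Saline-Saline 3, LPS-Saline 3, Saline-SA 3 and Heroin-SA 4.

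LPS-Heroin against Saline-Saline is the comparison that chose the members, so nothing is read from their count. On the log2(FPKM + 0.1) scale, Neurod6 was higher by 1.35 ± 0.46 (SE), Slc17a7 by 1.22 ± 0.34, Tbr1 by 1.13 ± 0.27 and Cck by 1.09 ± 0.36. Fezf2 was higher by 0.86 ± 0.30, Nptx1 by 0.81 ± 0.25, Mef2c by 0.76 ± 0.15 and Ctgf by 0.69 ± 0.31, and the difference of Rorb was 0.00 ± 0.23. At the limits used here (an unadjusted p of at most 0.05 and a fold of at least 1.3), 7 of 9 were past both, Ctgf and Rorb not, beside 2.99% of all genes. Groups did not overlap for 5 of 9 members, beside 3.70% of all genes. No gene of the 15134 passed an adjusted p of 0.05, and 11.3% had an unadjusted p of at most 0.05. Without Saline-Saline replicate 1, the library with the highest choroid plexus sum, the differences were 1.09 for Slc17a7, 1.21 for Neurod6, 0.89 for Cck, 0.76 for Nptx1, 0.65 for Mef2c, 0.01 for Rorb, 0.64 for Fezf2, 1.08 for Tbr1 and 0.68 for Ctgf. Without replicate 3 of that group, Neurod6 was higher by 0.90 and Ctgf by 0.35.

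Other cortical genes were read by list in the same comparison, again as a description. The lists had been written with earlier results of these data known, so their counts are no independent support. In the all-layer list, 6 of 8 non-members passed the same limits upwards, beside 2.99% of all genes. All 8 genes had positive differences, with a median of 0.86 against 0.00 over all genes. Sv2b, a synaptic vesicle protein and the most abundant of them, was higher by 0.94 ± 0.18 (SE). Their summed level was 168 to 184 FPKM in LPS-Heroin and 75.2 to 138 FPKM in Saline-Saline. Of the layer lists, 0 of 5 genes of layers 2 and 3, 0 of 2 of layer 4, 0 of 6 of layer 5 and 0 of 4 of layer 6 passed upwards. Beside 2.99% of all genes, lists this short carry no contrast between layers. In layer 5, 1 gene passed downwards (Stac, named after its value was seen), beside 2.44% of all genes. In the list of layer 6b, claustrum and endopiriform nucleus 1 of 8 passed, Ntng2 (named after its value was seen), which encodes a netrin-G. The most abundant members of that list, Gnb4 and Nxph4, differed by 0.09 ± 0.19 and -0.08 ± 0.20. Of the striatal genes 0 of 17 passed, with a median of 0.10. Lists of neighbouring tissue were lower, with medians of -1.04 for 6 septal and -1.27 for 4 choroid plexus genes, and 1 septal gene passed the limits downwards (Zic4, likewise named afterwards). Without Saline-Saline replicate 1, an alternative chosen after seeing the data, these medians were -0.39 and -0.09. Summed septal levels were 13.0 to 32.3 FPKM in LPS-Heroin and 17.9 to 106 FPKM in Saline-Saline.

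The difference was then set beside the cortical scores. The 32-gene score was higher in LPS-Heroin by 0.23, and taking off each gene's slope times this left 0.38 for Slc17a7, 0.69 for Neurod6, 0.50 for Mef2c, 0.48 for Tbr1 and 0.32 for Ctgf. The all-layer score alone, chosen after the data had been seen, was higher by 0.84. Taking off its slopes left -0.04 for Slc17a7, -0.05 for Cck, -0.01 for Nptx1, 0.07 for Tbr1 and 0.12 for Ctgf. It left 0.30 for Neurod6, 0.37 for Mef2c, 0.14 for Rorb and -0.18 for Fezf2. These remainders have no error of their own, the all-layer list was written with results of these libraries known, and 6 of its 8 genes were past the limits in this same comparison, so nothing is read from them.

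**Figure D5:**
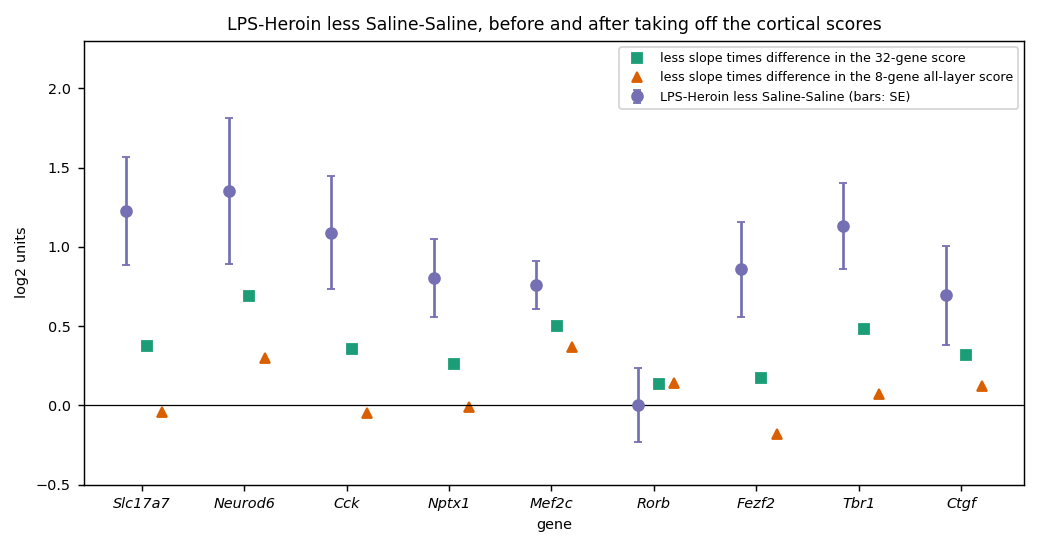
LPS-Heroin less Saline-Saline for each gene in log2 units (circles, bars are SE from limma), and the same after taking off the gene's slope times the difference in the 32-gene cortical score (squares) or the 8-gene all-layer score (triangles). With the all-layer score Slc17a7, Cck and Nptx1 lie at -0.05 to -0.01 and Mef2c at 0.37.

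The single-treatment groups share libraries with this comparison, so their values are given side by side only. Slc17a7 was 0.68 ± 0.49 (SE) higher in LPS-Saline and 0.80 ± 0.43 higher in Saline-Heroin than in Saline-Saline. Tbr1 stood 0.58 ± 0.42 and 0.60 ± 0.36 higher. Mef2c was 0.52 ± 0.29 and 0.72 ± 0.20 higher, and Ctgf was 0.34 ± 0.40 higher in LPS-Saline and -0.08 ± 0.34 in Saline-Heroin. Against Saline-Heroin, LPS-Heroin differed by 0.77 ± 0.14 for Ctgf, 0.53 ± 0.25 for Tbr1, 0.42 ± 0.28 for Slc17a7 and 0.04 ± 0.14 for Mef2c. Groups did not overlap for Ctgf and Tbr1 alone among the 9, beside 1.27% of all genes. The 8 other genes of layer 6b, claustrum and endopiriform nucleus were all higher in LPS-Heroin than in Saline-Heroin. Their median was 0.27 against 0.00 over all genes. Past the limits upwards were Nxph4 and Cplx3, the latter named after its value was seen. The share of all genes past the limits upwards is not given for this comparison, so nothing is read from that count. Nxph4 was also past the limits downwards in Saline-Heroin against Saline-Saline, beside 1.67% of all genes. Vascular genes moved in the opposite direction to Ctgf. The part of either list in the Ctgf difference was not tested. Of 8 genes of endothelium, mural cells and fibroblasts, 3 were past the limits downwards in LPS-Heroin against Saline-Heroin (Tagln, Acta2 and Col1a1, the last named after its value was seen), beside 0.999% of all genes, with a median of -0.86. The same 3 were past them upwards in Saline-Heroin against Saline-Saline, beside 1.40% of all genes, with a median over the list of 0.95. The summed level of the 8 genes was 93.7 to 163 FPKM in Saline-Heroin, 68.5 to 95.4 FPKM in LPS-Heroin and 69.8 to 116 FPKM in Saline-Saline, and none of them was at 0 in any library.

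Saline-Heroin and LPS-Saline were not used by the choice, and their contrast asks whether heroin and LPS given alone left different levels. No member passed the limits, beside 1.94% of genes in either direction. Differences ran from -0.41 ± 0.29 (SE) for Ctgf to 0.21 ± 0.28 for Mef2c, and limma's adjusted p was 1.00 for each of the 9. Without LPS-Saline replicate 3, Ctgf passed the limits, at -0.72.

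The LPS by heroin interaction asks whether both treatments together differed from the sum of each. It is computed in part from the Saline-Saline and LPS-Heroin libraries that chose the members, so its values are a description. It ran from -0.48 ± 0.35 (SE) for Mef2c to 0.80 ± 0.79 for Fezf2, and no member was past the limits, beside 2.31% of genes. For Slc17a7 it was -0.26 ± 0.62 and for Ctgf 0.44 ± 0.46. Without LPS-Saline replicate 3, Mef2c was at -0.77, past the limits.

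Heroin-SA against Saline-SA asks whether heroin that the rats took themselves changed these genes, in rats the choice had not used. No member was called, beside 5.44% of genes in either direction. Of the 9 differences 8 were positive, against a median of 0.01 over all genes. The 9 genes share libraries, so this count is not one of independent results. Tbr1 was higher by 0.68 ± 0.65 (SE; limma adjusted p = 0.694), Nptx1 by 0.60 ± 0.45 (0.613), Slc17a7 by 0.45 ± 0.75 (0.833) and Ctgf by 0.37 ± 0.30 (0.644). Mef2c was nearest to the limits, at 0.37 ± 0.14, with an unadjusted limma p of 0.0292 and an adjusted p of 0.395. Its fold was 1.29, and it passed both limits without Saline-SA replicate 1 or 2 or without Heroin-SA replicate 2 or 4. In 3 of 4 Heroin-SA libraries Slc17a7, Neurod6, Cck, Nptx1, Mef2c, Tbr1 and Ctgf were above every Saline-SA library, and replicate 4 was below every Saline-SA library for Slc17a7, Neurod6, Cck, Fezf2 and Ctgf. The share of all genes in such an order was not counted, so the order is a description and no effect of heroin is read from it. Without Heroin-SA replicate 4 the fit called 6 members (Slc17a7, Neurod6, Nptx1, Mef2c, Tbr1 and Ctgf), beside 5.09% of genes, with Slc17a7 at 1.19 and Tbr1 at 1.30. Without Saline-SA replicate 3, the differences of Slc17a7, Neurod6 and Cck were -0.09, -0.09 and -0.18. No gene of the 15024 had an adjusted p of at most 0.05 (the smallest was 0.0920), and 11.5% had an unadjusted p under 0.05.

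Of the other cortical genes in this contrast, 0 of 8 of the all-layer list were called, with all 8 positive and a median of 0.46 against 0.01 over all genes. In the list of layer 6b, claustrum and endopiriform nucleus 0 of 8 were called, with a median of 0.07, and 0 of 2 genes of layer 4 were called. In each of the 3 remaining layer lists 1 gene was called, Rasgrf2 and Stac being named after their values were seen. Rasgrf2, of layers 2 and 3, was higher by 1.36 ± 0.31 (SE; limma adjusted p = 0.273), beside 3.03% of all genes called higher, and Stac, of layer 5, was lower, at -1.27 ± 0.42 (limma adjusted p = 0.348). Syt6, a layer 6 gene, was lower by 0.38 ± 0.14 (SE) and passed the limits (limma adjusted p = 0.380), beside 2.41% of all genes called lower. Striatal genes had a median of 0.06, and 0 of 17 were called.

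Immediate early genes, which neurons switch on after activity, had more calls than the members. In Heroin-SA against Saline-SA, 7 of 10 were called lower (Junb, Arc, Nr4a1, Egr4, Fos, Fosb and Egr2), with a median log2 difference of -0.51. In Saline-Heroin against LPS-Saline, 10 of 10 were called lower, beside 1.12% of all genes, with a median of -1.07. For Egr1, the most abundant of them, this difference was -0.88 ± 0.20 (SE; limma adjusted p = 0.781). In Saline-Heroin against Saline-Saline 8 of 10 were past the limits downwards, beside 1.67% of all genes, with a median of -0.70. In LPS-Heroin against LPS-Saline it was 8 of 10, beside 1.15% of all genes, with a median of -0.60. These comparisons share groups and are not independent. In LPS-Heroin against Saline-Saline none was past the limits downwards and 1 was upwards (Dusp1), with a median of -0.31. On the cortical score all 10 slopes were positive, and that of Fos was called.

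The 10 genes outside the set whose levels were most like the members' were found over 13820 genes, by Pearson's r of within-group deviations with the mean standardized deviation of the 9, in the same 16 libraries. They were AC142182.1, Nov, Mical2, Kcnmb4, RGD1561849, Anxa11, Chrna4, Basp1, Syt17 and Tspan17, with r from 0.982 down to 0.955. Nov, a matricellular protein of the same family as Ctgf, ranged from 11.6 to 136 FPKM over the 24 libraries. Chrna4, a nicotinic receptor subunit, had a mean of 7.69 FPKM and Basp1, a growth cone protein, one of 365 FPKM. These r carry no test. They rest on deviations within groups that include the libraries low for the members, and their dependence on single libraries was not tested.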

How the data were processed

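Directional libraries of polyadenylated RNA from the NAc were sequenced by a provider, and the submitters' processing notes name fastp, HISAT2, featureCounts and the rn6 build, without versions. Whether counting used the strand is not given in the sources used here. The authors deposited FPKM values of 32545 genes for 24 libraries, 4 biological replicates per group by the labels. Values were turned back into whole reads for 100% of entries (tolerance 0.01 of a read), which gives 12312878 to 18850240 reads on genes per library. The precision of a value follows its reads.

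Groups were taken from the labels. Log2(FPKM + 0.1) was fitted with limma-trend (limma 3.58.1, R 4.3.3) for genes averaging 0.5 FPKM or more in the libraries fitted, and p-values were adjusted over all genes tested (Benjamini-Hochberg). In group comparisons a gene was called at an unadjusted p of at most 0.05 with a fold of at least 1.3, the limits that the study's methods give for comparing patterns across conditions. For differential expression the methods set a limit on the adjusted p, and adjusted p-values are therefore given beside the calls tested. Slopes had the group as covariate and were called at an adjusted p of at most 0.05. The fits were tested on simulated data with known changes. The 9 members and all lists were chosen with earlier results of these data known. Named were the members, the 3 most abundant genes of a list where a list is described, and the 10 genes most like the members. Lists of interneurons, oligodendrocytes, astrocytes, microglia, vascular cells and YAP and TEAD targets are given mainly in the closing section. Promoters were matched by symbol, or by synonym for Ctgf. Alternatives were other pseudocounts, filters, quantile normalization, robust moderation, limma-voom on the recovered reads, all groups in 1 fit, the replicate number as a block, other scores and leaving out each library. Names not found in the table were Neurod2, Nectin3, Pou3f1, Pecam1 and Otx2.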

Additional observations from a re-analysis of the deposited data

Results flagged for a closer look

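Within the groups of 4 libraries, 54 sets of values (9 genes in 6 groups) were examined for a library that lay far from its fellows by Dixon's gap test, which chance alone fulfils in about 1 of 20 groups. It was met 8 times. Heroin-SA replicate 4 was low for Neurod6 (3.59 FPKM, next lowest 19.9), Cck (44.5, next lowest 274), Tbr1 (2.41, next lowest 13.2) and Ctgf (11.2, next lowest 26.5). LPS-Saline replicate 3 was low for Slc17a7, at 91.2 FPKM with the next at 301, and Saline-Heroin replicate 2 was low for Tbr1, at 9.64 FPKM with the next at 21.0. Fezf2 was high in LPS-Saline replicate 2, at 10.4 FPKM with the next at 2.78, and in Saline-Heroin replicate 1, at 11.01 FPKM with the next at 2.97. These sets are not independent, since the genes share libraries. None of the 8 concerned Saline-Saline or LPS-Heroin.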

How the results depend on the processing

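Beside the calls given in the report, results moved as follows. Without a filter on low values, 481 genes were called in Saline-Heroin against LPS-Saline (294 with the filter) and 565 in the interaction (349), and no member in either. The slope on the cortical list called 190 genes and 7 members; this became 0 genes and 0 members in the self-administration libraries alone, 4 and 0 in LPS-Saline and Saline-Heroin alone, and 23 and 2 with the striatal score as a second covariate. It called 287 genes in all 24 libraries, 350 with the all-layer list and 342 with Slc17a7 as the score, the last 2 added after the data had been seen. Leaving out each library gave 32 to 287 genes and 2 to 8 members for the slope, 642 to 1210 genes and 0 to 6 members in Heroin-SA against Saline-SA (6 members go with 764 genes, without Heroin-SA replicate 4), 298 to 460 genes and 0 to 1 member in Saline-Heroin against LPS-Saline, 289 to 446 genes and 0 to 1 member in the interaction, and 5 to 7 members without overlap in LPS-Heroin against Saline-Saline. It took Heroin-SA against Saline-SA through zero for Slc17a7 (-0.088 to 1.19), Neurod6 (-0.090 to 0.92), Cck (-0.18 to 0.96) and Fezf2 (-0.52 to 0.36). It did so too for Mef2c in Saline-Heroin against LPS-Saline (-0.088 to 0.35) and Rorb in LPS-Heroin against Saline-Saline (-0.14 to 0.21). Taking off the all-layer score left LPS-Heroin differences under zero for Slc17a7 (-0.040), Cck (-0.048), Nptx1 (-0.013) and Fezf2 (-0.18), each smaller in size than the SE of its difference, so no change of direction is read from them. Replicate numbers share only a number: correlations of same-numbered libraries ran from -0.08 to 0.11, and 5 of 20 libraries correlated best with their own number. With the replicate number as a block, 756, 314 and 346 genes and no member were called in the 3 group comparisons, and the slope called 175 genes and 6 members. The cause of these shifts was not tested beyond the fewer libraries or added genes of each alternative. Rorb and Fezf2 had at most 364 reads in every library, and the part of depth in their results was not tested.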

Other observations

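The YAP and TEAD target genes other than Ctgf gave 0 calls of 4 in the group comparisons, with medians of -0.05 in Heroin-SA against Saline-SA and -0.18 in LPS-Heroin against Saline-Saline, and Amotl2 and Lats2 were the most abundant.

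In LPS-Heroin against Saline-Saline, 0 of 7 oligodendrocyte genes were past the limits, all 7 differences being negative (median -0.23), and neither were 5 astrocyte genes (median -0.03) or 8 vascular genes (median -0.01). Of 6 microglial genes 1 was past them upwards (Tmem119), and of 8 interneuron genes 1 downwards (Lhx6). In Heroin-SA against Saline-SA none of the 7 oligodendrocyte, 5 astrocyte, 8 vascular or 6 microglial genes was called, and 1 of 8 interneuron genes was called lower (Chat). On the cortical score, 2 of 8 interneuron genes were called, in opposite directions (Gad2 and Vip), and none of the glial, vascular or YAP and TEAD genes was called. The single genes of these counts were named after their values were seen. In the other group comparisons, the calls in these lists, vascular genes in heroin-injected rats apart, were Flt1 lower in Saline-Heroin against LPS-Saline, Lhx6 and Cx3cr1 lower in Saline-Heroin against Saline-Saline, P2ry12 lower in LPS-Heroin against LPS-Saline, and Cx3cr1 higher in the interaction.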
